A study of Mus musculus with 6 samples.

Results

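The integrin subunits that bind the peptide motif RGD (arginine, glycine, aspartate), together with their ligand osteopontin, were followed in mouse blastocysts cultured with a synthetic microRNA. The genes were chosen by name for their role in attachment of the blastocyst: Spp1, Itgb3, Itgb1, Itgb5, Itgb8, Itgav and Itga5. The choice was made with earlier results of these data known. Of these 7 genes 6 had a named feature (a spot on the array), and they shared 9 of the 33026 named features. No named feature carried Spp1, which encodes osteopontin, so Spp1 was not analysed here. Itgb3, Itgb1 and Itgav had 2 features each, called the brighter and the dimmer feature below, and Itgb5, Itgb8 and Itga5 had 1 each. The values are log2 signal of 1-colour arrays, on which 1 unit is a doubling of signal.

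Whole blastocysts of the B6C3F1 hybrid strain were measured on day 5. Females of 6 to 8 weeks were induced to ovulate with 10 IU of pregnant mare serum gonadotropin and 10 IU of hCG and mated, and embryos were taken from the oviduct on day 2 of pregnancy. The 3 mimic samples were cultured for 72 hours in CCM-30 medium with 400 nM of a miR-30d mimic, and the 3 scramble samples with the same dose of a scrambled oligonucleotide that bore the label Alexa 488. There were 30 embryos to a condition and no untreated embryos were arrayed, so an effect of the dye label cannot be told apart from one of the miR-30d sequence, and what both oligonucleotides do alike was not measured. The comparison asks how the embryo's transcripts differ after this exposure. In RNA of whole embryos, fewer cells of a type and less RNA per cell cannot be told apart.

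Integrins are receptors made of an alpha and a beta chain that span the cell membrane and tie the extracellular matrix to the actin cytoskeleton. The alpha v chain (Itgav) pairs with several beta chains, among them beta 1, beta 3, beta 5 and beta 8, and the alpha 5 chain (Itga5) pairs with beta 1 as the main fibronectin receptor. On the trophectoderm, the outer layer of the blastocyst, receptors of this class can bind osteopontin and fibronectin as the embryo attaches to the uterus. A microRNA guides silencing proteins to messengers that pair with its seed, bases 2 to 8, and ITGB3 has been reported as a target of the miR-30 family in human breast cancer cells.

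The mimic stands for a member of the miR-30 family, whose members share a seed. Mature 5p sequences of other family members are given to show the element through which such a mimic would pair with messengers, from RefSeq on mouse assembly GRCm38.p6, 5′ to 3′ with the seed in capitals.
mmu-miR-30a-5p: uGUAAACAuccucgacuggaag
mmu-miR-30c-5p: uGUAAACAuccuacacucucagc
mmu-miR-30e-5p: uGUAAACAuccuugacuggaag
The first lies at chr1:23272274-23272295 on the plus strand. The miR-30c sequence is encoded at chr1:23291714-23291736 on the plus strand and again at chr4:120769584-120769606 on the minus strand, and miR-30e lies at chr4:120772660-120772681 on the minus strand. All 3 hold the seed GUAAACA, and they differ after it.

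The arrays carried blastocyst RNA by their markers. Of 7 trophectoderm markers 7 were above the level of 7.16 that separated the dimmest 25% of named features, and their mean log2 level was 13.13 to 13.40 on scramble arrays and 13.03 to 13.38 on mimic arrays. The 5 inner cell mass markers averaged 9.51 to 9.97 and 9.86 to 10.10, and the 5 primitive endoderm markers 10.14 to 10.36 and 10.19 to 10.40. Both replicate 1 arrays stood apart, with a median correlation over genes to the other arrays of 0.912 and 0.945, against 0.977 to 0.979 for the other 4. Their correlation with each other was 0.912, so they were no more alike than either was to the rest. As a guide to the dim end, 1279 features of olfactory receptor genes, which serve smell, had a median level of 7.13 and a 95th percentile of 7.43. That percentile was 8.09 to 8.31 on the replicate 1 arrays and 7.37 to 7.81 on the others, so the dim end was broader on the replicate 1 arrays, and the difference of each tested member feature is given with and without them.

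**Figure D1:**
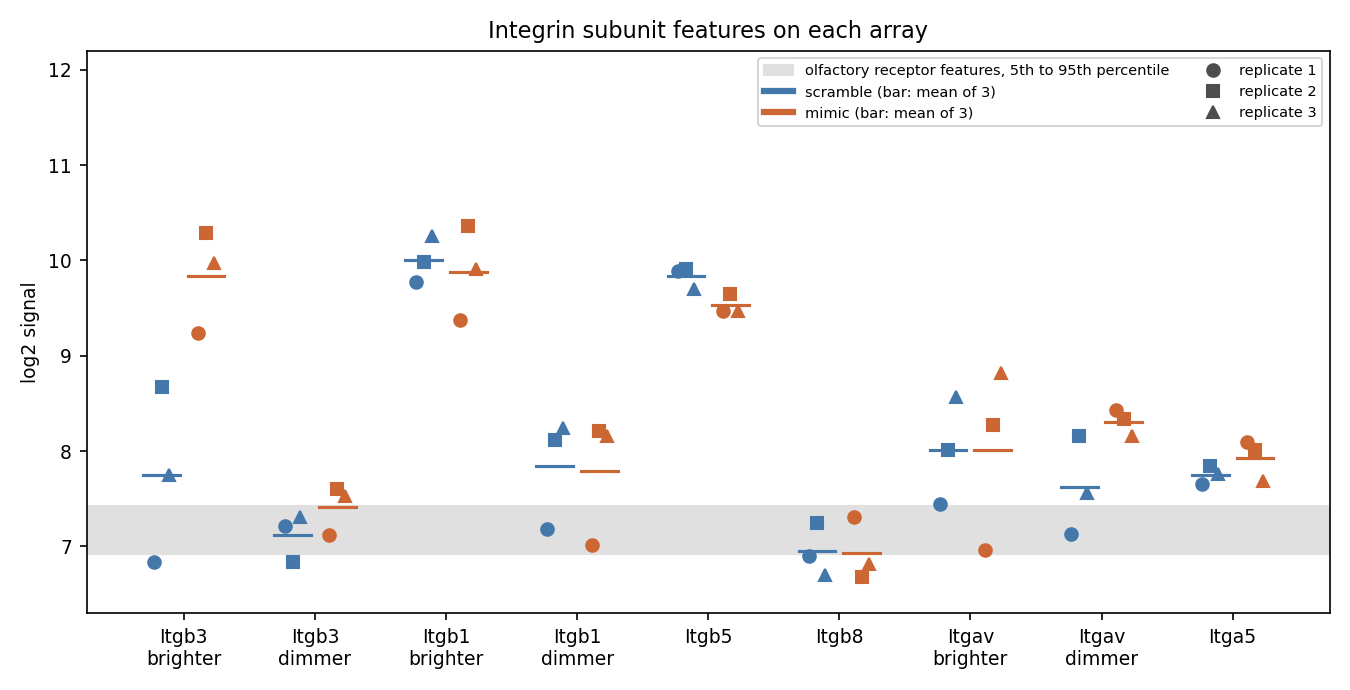
Log2 signal of the 9 features of 6 integrin subunit genes on each of 6 arrays (blue scramble, orange mimic, symbol for the replicate number, bars the mean of 3). The grey band spans the 5th to the 95th percentile of the mean levels of olfactory receptor features. The brighter Itgb3 feature is at 9.23 to 10.29 on the mimic arrays, above all scramble arrays, and Itgb8 lies in or below the band.

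Itgb3, the beta 3 chain, had the largest difference among the members. Its brighter feature read 6.84, 8.67 and 7.75 on scramble replicates 1, 2 and 3, and 9.23, 10.29 and 9.98 on mimic replicates 1, 2 and 3. Every mimic array was above every scramble array, and both groups were lowest on replicate 1 and highest on replicate 2. The means were 7.75 ± 0.92 (SD, n = 3) and 9.83 ± 0.54 (SD, n = 3), a log2 difference of 2.08 (SE 0.47, 95% interval 1.01 to 3.16) or 4.24-fold. Of 17399 genes tested only 2 had a larger positive difference, and 73 (0.42%) had one of 1 or more, an order that takes dim readings at their value.

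The Itgb3 difference did not pass in limma after Benjamini-Hochberg adjustment over all genes (adjusted p = 0.972), and no gene did (0%, or 0 of 17399). Its unadjusted p was 0.0019 in limma, rank 22 of all genes, where 552 genes (3.17%) had one under 0.05. A two-sided exact permutation test over the arrays gave p = 0.1, the smallest that 3 against 3 allows. Between arrays of the same replicate number the mimic array was higher by 2.40, 1.62 and 2.23 for numbers 1, 2 and 3. The difference was 1.92 without both replicate 1 arrays and 1.62 without scramble replicate 1 alone. On scramble replicate 1 the feature read below the median olfactory receptor level, and of the scramble arrays only replicate 2 was above the 95th percentile of olfactory receptor features on its own array, against 3 of 3 mimic arrays. A reading in that range has no known detection limit, so the fold can understate or overstate the true one. The order of the differences rests on the same readings.

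The dimmer Itgb3 feature did not show a difference of that size. It read 7.21, 6.83 and 7.31 on the scramble arrays and 7.12, 7.60 and 7.53 on the mimic arrays, and the groups overlapped because mimic replicate 1 was below scramble replicates 1 and 3. The log2 difference was 0.30 (SE 0.22, 95% interval -0.20 to 0.79; adjusted p = 0.979 over 24769 features in limma). Leaving out scramble replicate 2 gave 0.15, and leaving out both replicate 1 arrays gave 0.49. The feature passed the olfactory receptor 95th percentile on 0 scramble arrays and 2 mimic arrays. Both features carry the same transcript accession, NM_016780, and where on the transcript each one lies was not analysed here. The mean of both features gave a log2 difference of 1.19.

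Itgb1, the beta 1 chain and the partner of alpha 5, showed no group difference beyond the spread of the arrays. Its brighter feature read 9.77, 9.99 and 10.26 with scramble and 9.37, 10.36 and 9.91 with the mimic, so that the mimic group held both the lowest and the highest array. The log2 difference was -0.12 (SE 0.26, 95% interval -0.71 to 0.46; adjusted p = 0.974 in limma). The dimmer feature read 7.18, 8.12 and 8.24 with scramble and 7.01, 8.21 and 8.15 with the mimic, a difference of -0.05 (SE 0.43), and 4 of 6 readings passed the olfactory receptor 95th percentile of their arrays. On it both replicate 1 arrays were at least 0.93 log2 below every other array, whichever oligonucleotide they had received. Without those arrays the differences were 0.017 and 0.0051, so the sign of neither was settled. Between same-numbered arrays the brighter feature differed by -0.40, 0.37 and -0.34 for numbers 1, 2 and 3.

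Itgb5, the beta 5 chain of a vitronectin receptor with alpha v, was on the lower side with the mimic. Its feature read 9.89, 9.91 and 9.70 on the scramble arrays and 9.47, 9.65 and 9.47 on the mimic arrays. The groups did not overlap, with 0.05 between the lowest scramble and the highest mimic array. Between same-numbered arrays the mimic array was lower each time, by differences of -0.42, -0.26 and -0.23 for numbers 1, 2 and 3. The group means were 9.83 ± 0.11 (SD, n = 3) and 9.53 ± 0.10 (SD, n = 3), which differ by -0.30 on the log2 scale (SE 0.16, 95% interval -0.66 to 0.05; adjusted p = 0.972 in limma). The exact permutation test gave p = 0.1, the smallest possible. All 6 readings were above the olfactory receptor 95th percentile of their arrays, and the difference was -0.25 without both replicate 1 arrays.

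Itgb8, the beta 8 chain of a receptor that activates latent TGF-beta, was dim on every array. It read 6.90, 7.25 and 6.70 with scramble and 7.31, 6.68 and 6.82 with the mimic, and 0 of 6 readings passed the olfactory receptor 95th percentile. The feature ranked at the 4.99th percentile of all 45220 features and was left out of the tested set. In a limma fit with no filter the log2 difference was -0.01 (95% interval -0.45 to 0.43). A dim feature cannot tell a low transcript from a poor probe.

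Itgav, the alpha v chain shared by the beta 3, beta 5 and beta 8 receptors, gave features that disagreed. The brighter feature read 7.44, 8.01 and 8.56 on the scramble arrays and 6.96, 8.27 and 8.82 on the mimic arrays, and the range of the mimic arrays held all scramble arrays. Between same-numbered arrays it differed by -0.49, 0.26 and 0.26. Its log2 difference was 0.0098 (SE 0.51, 95% interval -1.16 to 1.17; adjusted p = 1.00 in limma). The dimmer feature read 7.13, 8.16 and 7.56 with scramble and 8.44, 8.33 and 8.15 with the mimic. Here scramble replicate 1 was lowest and the groups overlapped only because scramble replicate 2 was 0.0060 above mimic replicate 3. Between same-numbered arrays the mimic array was higher each time, by 1.30, 0.17 and 0.59 for numbers 1, 2 and 3. Its log2 difference was 0.69 (SE 0.34, 95% interval -0.08 to 1.46; adjusted p = 0.979 in limma). On each feature 4 of 6 readings passed the olfactory receptor 95th percentile of their arrays.

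The replicate 1 arrays weighed on both Itgav features. On mimic replicate 1 the brighter feature was the lowest of its 6 readings and the dimmer feature the highest of its 6. Without both replicate 1 arrays the differences were 0.26 and 0.38, closer to each other, and neither passed (adjusted p = 0.883 and 0.841 in limma). Leaving out mimic replicate 1 alone gave 0.54 for the brighter feature, and leaving out mimic replicate 3 gave -0.39. Leaving out scramble replicate 1 took the dimmer feature to 0.45.

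Itga5, the fibronectin-binding alpha 5 chain, varied little. It read 7.65, 7.84 and 7.76 with scramble and 8.09, 8.01 and 7.69 with the mimic. Mimic replicates 1 and 2 were above all scramble arrays, and mimic replicate 3 was between scramble replicates 1 and 3. Between same-numbered arrays it differed by 0.44, 0.17 and -0.07. The log2 difference was 0.18 (SE 0.27, 95% interval -0.44 to 0.80; adjusted p = 0.972 in limma). It was 0.05 without both replicate 1 arrays, 0.10 without mimic replicate 1 and 0.30 without mimic replicate 3, and 3 of 6 readings passed the olfactory receptor 95th percentile of their arrays.

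Among the 5 member genes tested on their brightest feature, 3 were higher and 2 lower with the mimic in the mean, beside 53.2% higher of all genes, and 0 passed. The groups did not overlap for Itgb3 on the higher side and Itgb5 on the lower side. Over all genes tested 1687 (9.7%) had groups that did not overlap, 971 (5.58%) with the mimic higher and 716 (4.12%) with the mimic lower. The median difference of the 5 genes was 0.0098, and of all genes 0.02. With 5 genes these counts are a description. Between chains of one receptor, the beta 3 difference thus stood beside a brighter alpha v feature whose interval was centred near 0 and a dimmer one at 0.69, and brightness was not compared between features of different genes, since probes differ in their response.

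**Figure D2:**
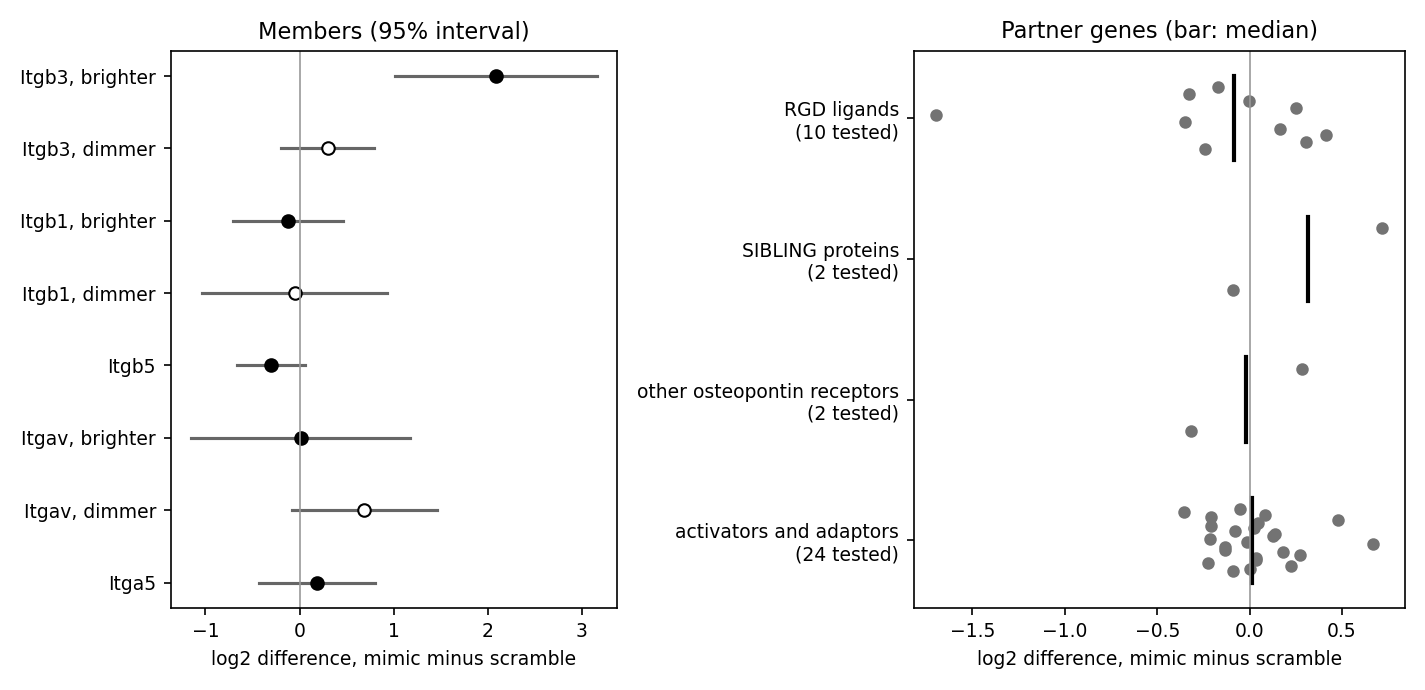
Left, log2 difference (mimic minus scramble) of the 8 tested member features with its 95% interval in limma, filled for the brightest feature of a gene and open for the dimmer one. Right, log2 differences of the 38 tested partner genes by list, with bars at the medians; only the brighter Itgb3 interval among the members lies wholly above 0, and the partner genes spread on both sides of it.

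The genes around these receptors were counted from lists of other RGD-binding subunits, RGD ligands, relatives of osteopontin, other osteopontin receptors and the cytoplasmic proteins that switch integrins on and link them to actin. Of 50 genes listed 48 had a feature and 38 were tested. With the mimic 19 were higher and 19 lower, 0 passed the adjusted threshold, and 2 had an unadjusted p under 0.05 in limma (Mfge8 and Lims2), beside 3.17% of all genes. The groups did not overlap for 6 on the higher and 2 on the lower side, beside 5.58% and 4.12% of all genes, and the median difference was 0.00048 beside 0.02 for all genes. One of those on the higher side, Itga4, was at the dim end on every array. Tln2, also on the higher side, was near it, with means of 7.23 with scramble and 7.71 with the mimic. The genes on the lower side were Npnt and Tgfb1. Npnt was near the dim end, with means of 7.43 and 7.09, and had 0.41 on its other feature. Tgfb1 averaged 6.96 on the mimic arrays. Npnt and Tgfb1 with the mimic, and Itga4 with scramble (7.05), averaged under the filter level of 7.16. These genes were tested only through the readings of their higher group. The counts of groups that did not overlap therefore depend in part on the filter. The other RGD-binding subunits (Itga8, Itga2b and Itgb6) were all among the dimmest 25% and were not tested.

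The RGD ligands had a median difference of -0.09, with 4 genes of 10 on the higher and 6 on the lower side. Mfge8, a secreted protein that bridges alpha v integrins to phosphatidylserine, read 11.64, 11.67 and 11.49 with scramble and 12.26, 11.92 and 11.85 with the mimic. Its log2 difference was 0.41 (SE 0.14; adjusted p = 0.972 in limma). Fn1, fibronectin, read 10.79, 10.90 and 10.78 with scramble and 11.32, 11.13 and 10.92 with the mimic, which gave 0.31 (SE 0.14). In both genes every mimic array was above every scramble array and mimic replicate 1 was highest, and without both replicate 1 arrays the differences were 0.30 and 0.19. Tgfb1, whose latent form carries an RGD motif, had -1.70 (SE 0.90) on its brightest feature, where scramble replicate 1 read 11.17 against 6.77 to 7.43 elsewhere. Leaving out that array gave -0.44, and leaving out both replicate 1 arrays gave -0.35. Every scramble array was above every mimic array, but apart from scramble replicate 1 this was an order among readings near the dim end. Its other 9 features were between -0.34 and 0.10.

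Of the relatives of osteopontin in bone and teeth, Mepe had 0.72 (SE 0.36) and Dspp -0.09 (SE 0.19), both near the dim end, and Ibsp and Dmp1 were not tested. Without mimic replicate 1, which read 8.47, Mepe had 0.34, and without both replicate 1 arrays 0.55. Among the other osteopontin receptors Itga4 had 0.28 (SE 0.16), but 0 of its 6 readings passed the olfactory receptor 95th percentile of their arrays. Cd44 had -0.32 (SE 0.32) on its brightest feature, which was -0.52 without both replicate 1 arrays and 0.05 without scramble replicate 3. That feature was near the dim end, with means of 7.53 with scramble and 7.21 with the mimic. The other 3 Cd44 features were between -0.15 and 0.23. None of the genes tested in these lists passed in limma.

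The activators and adaptors had a median difference of 0.01, with 13 genes of 24 on the higher and 11 on the lower side. Lims2, which encodes PINCH2 of the complex with integrin-linked kinase, read 9.12, 9.49 and 8.91 with scramble and 9.74, 9.93 and 9.85 with the mimic. All mimic arrays were above all scramble arrays, and the log2 difference was 0.67 (SE 0.19; adjusted p = 0.972 in limma) and 0.69 without both replicate 1 arrays. Ilk, the integrin-linked kinase itself, had 0.27 (SE 0.16), which was 0.09 without those arrays. Tln2, a talin that activates beta chains, had 0.48 (SE 0.26) on its brighter feature and -0.28 on the other, and the brighter one had 0.19 without the replicate 1 arrays. Actn4 and Tln1, which carry force from integrins to actin, had 0.0037 and 0.05, with 0.23 on the other Tln1 feature.

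**Figure D3:**
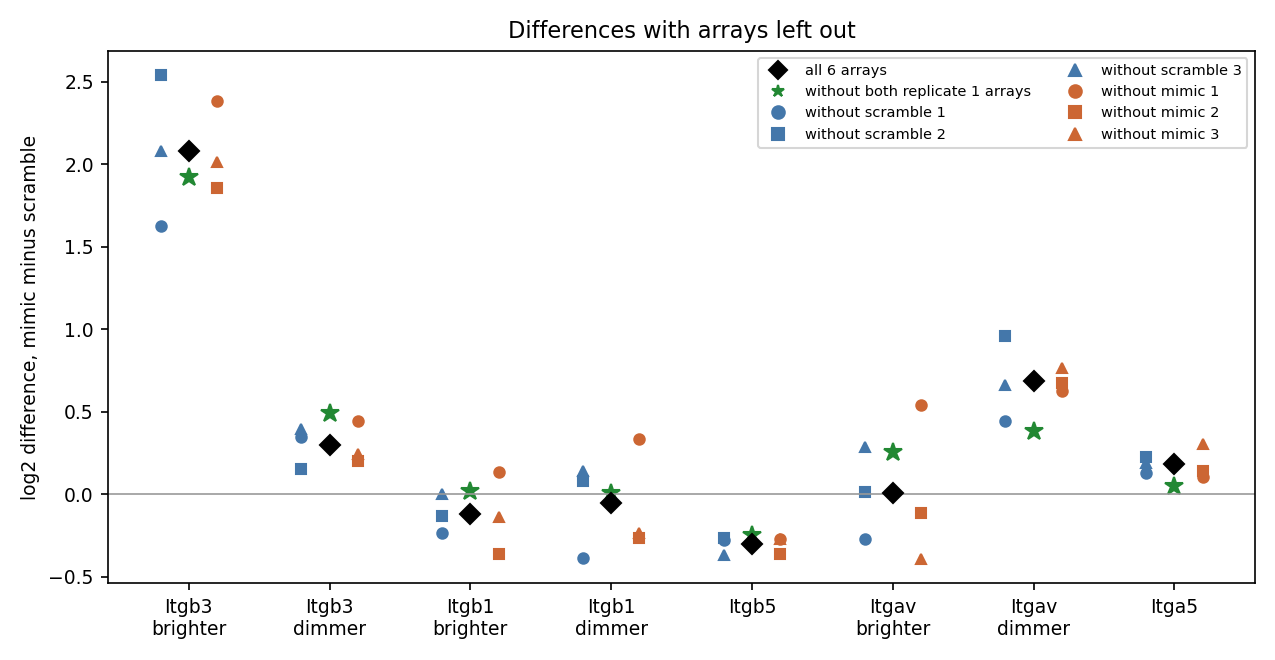
Log2 difference (mimic minus scramble) of the 8 tested member features with all 6 arrays (diamond), without both replicate 1 arrays (star) and without each array in turn (blue, a scramble array left out; orange, a mimic array left out). The brighter Itgb3 feature stays between 1.62 and 2.54 and Itgb5 between -0.37 and -0.27 with 1 array left out, while both Itgb1 features and the brighter Itgav feature fall on either side of 0.

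The genes whose profile over the 6 arrays lay nearest to a member were found for the brightest features with an SD over 0.5, those of Itgb3 and Itgav. The measure was the root-mean-square difference between log2 profiles, each centred on its mean. Nearest to Itgb3 were Ctsll3, a cathepsin L-like protease gene (0.33), Hpgd, which encodes the enzyme that inactivates prostaglandins (0.39), and Itga7, a laminin-binding alpha chain (0.49), against an SD of 1.32 for Itgb3 itself. Hpgd read 7.39, 8.32 and 7.59 with scramble and 8.85, 10.07 and 9.26 with the mimic. All 3 were lowest on scramble replicate 1 and highest on mimic replicate 2, as Itgb3 was. Nearest to the brighter Itgav feature were Jade3 (0.14), Fosb (0.14) and Tmem170b (0.16), all of which were lowest on mimic replicate 1 and next lowest on scramble replicate 1. The genes were picked for nearness over these same arrays, so sharing a member's lowest or highest arrays follows largely from the choice. These profiles are descriptions over 6 arrays in 2 groups.

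**Figure D4:**
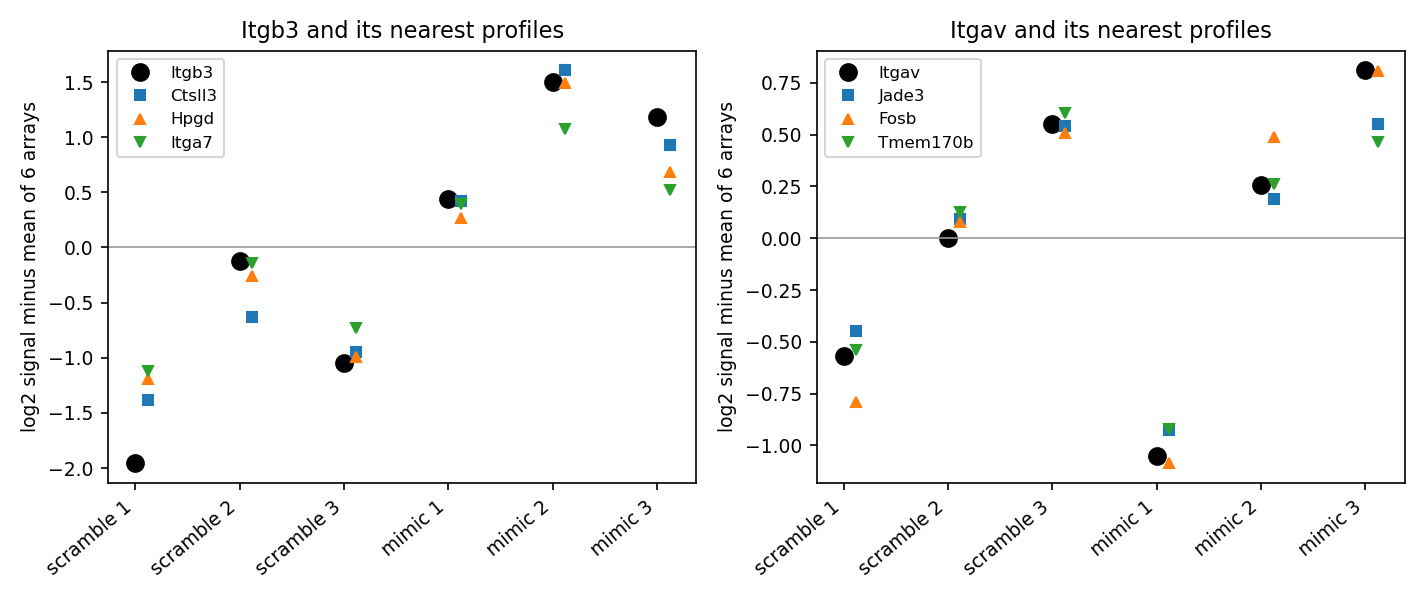
Log2 signal minus the mean of 6 arrays for Itgb3 (left) and the brighter Itgav feature (right, black) with the 3 genes of nearest profile to each. The Itgb3 group is lowest on scramble replicate 1 and highest on mimic replicate 2, and the Itgav group is lowest on mimic replicate 1.

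Beta 3 integrin is also carried by platelets, megakaryocytes and endothelial cells, and alpha v integrins by macrophages. Of 7 platelet and megakaryocyte markers 5 had a feature, and 0 of these were above the filter level; the list averaged 6.95 to 7.23 on scramble arrays and 7.03 to 7.11 on mimic arrays. The 9 endothelial markers averaged 7.65 to 7.86 and 7.64 to 8.22, and 4 of 8 tested were higher. Their median level was only 7.37, under the olfactory receptor 95th percentile of 7.43. Kdr raised the average, at 10.60 with scramble and 10.31 with the mimic. Cdh5, the cadherin of endothelial junctions, had 1.87 (SE 0.80), 0.78 without mimic replicate 1 and 0.71 without both replicate 1 arrays, and its groups did not overlap. Its scramble mean of 7.56 was near the dim end, and its mimic mean was 9.42 with an SD of 1.90. Esam, an adhesion molecule of endothelial junctions, had -0.58 (SE 0.21), with every mimic array below every scramble array. Its means were 7.53 with scramble and 6.95 with the mimic, both near the dim end. The mimic mean was under the filter level of 7.16, so Esam was tested only through its scramble readings. Pecam1 had 0.18, Cldn5 0.05, Tie1 0.04, Emcn -0.12, Vwf -0.17 and Kdr -0.29, all with groups that overlapped, and 0 of these markers passed the adjusted threshold in limma. The 7 macrophage markers averaged 7.64 to 8.18 and 7.56 to 8.19, and 2 of 5 tested were higher. Their median level was 7.19. Itgam, at 11.01 with scramble and 10.56 with the mimic, raised that average most. The part of these cells in the Itgb3 difference was not tested.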

How the data were processed

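Values of 6 samples were analysed as the authors deposited them, as log2 signal for 45220 features; how they were background-corrected and normalized is not stated in the labels or the file. Features were named from GEO's platform annotation, and 32438 of 33026 named ones (98.2%) were matched by Entrez identifier to RefSeq symbols of GRCm38.p6. The lowest 25% of named features by mean (under 7.16) were left out, which kept 24769 features, 8 of the 9 member features among them, and 17399 genes. The groups were compared in R 4.3.3 by limma 3.58.1 (two-sided lmFit with trended eBayes, Benjamini-Hochberg adjustment, threshold 0.05), a fit first tested on simulated data. Genes were fitted on their brightest feature, and dimmer features in a fit over all features kept. Precision is limited by the number of arrays: the median SE of a log2 difference was 0.249. The labels call the samples biological replicates without saying whether they came from separate matings, so the p-values cover only the spread among these 6 samples, which may be technical.

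Same-numbered arrays deviated together (correlations of 0.328, 0.349 and 0.204 for numbers 1, 2 and 3). All were over a rule of 0.1 for taking arrays as pairs, read from the data and not from the labels. The rule did not set them apart: scramble 2 with mimic 3 reached 0.185, and scramble 3 with mimic 2 reached 0.124. The fits and exact tests in the Results took the arrays as unpaired, and a fit with pairs is given below. Named were all members, up to 3 genes of smallest p in each partner list, 3 nearest profiles for members with an SD over 0.5, and defining markers; Actn4, Tln1, the partner genes named as not tested and the endothelial markers other than Cdh5, Pecam1 and Tie1 were added after their values were seen. The members and lists were chosen with earlier results of these data known. Figures were drawn with matplotlib 3.10.9.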

Additional observations from a re-analysis of the deposited data

How the results depend on the processing

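Over 14 alternatives (other dim filters, quantile or median scaling, no variance trend, the replicate block, the mean of a gene's features, and arrays left out) the 8 member features gave 108 values, of which 0 passed the adjusted threshold and 10 changed sign. The sign changes were in Itgb1 and the brighter Itgav feature, and all 10 came with arrays left out. Other dim filters, no variance trend and the replicate block left each log2 difference as it was. Those alternatives could not change a sign. Without both replicate 1 arrays the Itgb1 features had 0.017 and 0.0051. With each array left out in turn the brighter Itgb1 feature went from -0.36 to 0.13, the dimmer from -0.38 to 0.34 and the brighter Itgav feature from -0.39 to 0.54, where the cause was not tested. With the replicate block, which takes same-numbered arrays as pairs, limma called 1 gene and 1 feature in place of 0, both Ctsll3, and 1260 genes in place of 552 had an unadjusted p under 0.05. The adjusted p of Itgb3 was then 0.189, the smallest of the 108, and the block changed no member's call. That count of 552 was 1000 without both replicate 1 arrays, 919 without scramble replicate 2 and 362 without mimic replicate 2. The lack of background readings limits every reading not above the olfactory receptor 95th percentile of its array: all 6 of Itgb8, 4 of the dimmer Itgb3 feature, 3 of Itga5, and 2 each of the brighter Itgb3 (scramble replicates 1 and 3), the dimmer Itgb1 and both Itgav features.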

Other observations

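Of the other marker lists, the 6 stroma markers averaged a log2 level of 7.09 to 7.24 on scramble arrays and 7.10 to 7.20 on mimic arrays. The 6 cumulus markers averaged 7.03 to 7.22 and 7.01 to 7.53, and the 5 oviduct epithelium markers 7.01 to 7.26 and 6.95 to 7.17. Of the trophoblast giant cell markers 1 of 4 had a feature, Hand1, a regulator of giant cell fate, which had a log2 difference of 1.07 (adjusted p = 0.972 in limma). Its means were 7.35 with scramble, at the dim end, and 8.42 with the mimic. The groups overlapped, and the difference was 0.71 without mimic replicate 2 and 0.97 without both replicate 1 arrays.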
